A study of Mus musculus with 2 samples.

Results

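The GATA transcription factor genes Gata1 to Gata6 and the genes of their FOG cofactors, Zfpm1 and Zfpm2, were examined in the pleuroperitoneal folds (PPFs) of the mouse embryo. Members were the rows whose gene symbol was one of these 8 names, and all 8 were found among the 38926 genes listed for each library. The PPFs are paired embryonic folds that give rise to connective tissue of the diaphragm, and the series was made to rank genes from human studies of congenital diaphragmatic hernia by their expression. It holds a single group of 2 libraries, replicates 1 and 2, from wild-type embryos at embryonic day 12.5 of a mixed 129s/SvlmJ-C57/BL6J background. Each library was made from 2 pooled PPF pairs, and the series describes the libraries as biological replicates. No label says if the pairs were of different litters, so the spread between the libraries may be smaller than that between litters.

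GATA proteins bind DNA at GATA sequences through a pair of zinc fingers. The C-terminal finger makes the main contact with DNA, while the N-terminal finger also binds the FOG proteins. FOG proteins do not need to bind DNA themselves and turn GATA factors into repressors or activators by bringing in other complexes, among them the NuRD and CtBP corepressors. Gata4, Gata5 and Gata6 act in heart, gut and other mesoderm and endoderm, whereas Gata1, Gata2 and Gata3 are best known from blood, with Gata3 also acting in T cells, the nephric duct and sympathetic neurons. In humans, variants in GATA4, GATA6 and ZFPM2 have been linked to diaphragmatic hernia, and mice with mutant Zfpm2 form an abnormal diaphragm.

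The coding sequence of the N-terminal finger is shown because it is the part of a GATA factor that meets its FOG partner, and because its likeness across the family bears on whether reads could be mixed up between members. Sequences are from GENCODE M21 transcripts on GRCm38, 5′ to 3′ on the coding strand, and capitals mark the 4 codons for the cysteines that hold the zinc. Each stretch of 75 bases lies in a single coding exon. The positions are chrX:7961984-7962058 for Gata1 and chr6:88202430-88202504 for Gata2. They are chr2:9868821-9868895 for Gata3, chr14:63204649-63204723 for Gata4 and chr2:180332356-180332430 for Gata5. Gata2 is on the plus strand and the other 4 are on the minus strand.
Gata1: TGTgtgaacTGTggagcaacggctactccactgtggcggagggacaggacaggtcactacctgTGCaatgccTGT
Gata2: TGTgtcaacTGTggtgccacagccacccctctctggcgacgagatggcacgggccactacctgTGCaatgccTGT
Gata3: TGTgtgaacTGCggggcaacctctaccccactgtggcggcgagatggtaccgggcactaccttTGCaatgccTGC
Gata4: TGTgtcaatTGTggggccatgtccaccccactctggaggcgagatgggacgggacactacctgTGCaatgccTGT
Gata5: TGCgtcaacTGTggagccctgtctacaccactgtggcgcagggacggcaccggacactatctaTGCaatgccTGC

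A search of the coding sequences found 2 such fingers in each of the 6 GATA genes, Gata6 included. Between pairs of GATA genes the N-terminal finger had 54 to 65 identical bases of 75, and 21 to 24 of its 25 codons stood for the same residue. Gata4 and Gata2 had the most identical bases (65), and Gata4 and Gata6 had 55. In the C-terminal finger 51 to 61 bases were identical, with 61 for Gata4 and Gata6, and 19 to 25 codons stood for the same residue. Across whole annotated transcripts, the longest identical run between any of the 28 pairs of members was 26 bases, between Gata4 and Gata5.

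The start of the FOG coding sequences is shown because the N-terminus of FOG proteins carries the motif that recruits NuRD. These first 36 bases lie in exon 1, at chr8:122282483-122282518 for Zfpm1 and chr15:40655544-40655579 for Zfpm2, both on the plus strand of GRCm38. Capitals mark the bases that differ between the genes.
Zfpm1: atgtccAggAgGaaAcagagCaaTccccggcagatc
Zfpm2: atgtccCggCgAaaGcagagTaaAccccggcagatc
Of these bases 30 were identical, and 11 of the 12 codons stood for the same residue.

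Each library had a raw count per gene and a TPM value, in which the count is divided by the length of the gene and the sum is made equal between libraries. The total count was 26370253 for replicate 1 and 23255957 for replicate 2. Of 8 listed genes known from the PPFs, all had at least 1 TPM in both libraries, with medians of 73.0 and 74.5 TPM. Among them were Wt1, Osr1, Tbx5 and the fibroblast receptor gene Pdgfra. The list was chosen with earlier results of these data known, so this does not test the identity of the tissue. All 8 GATA and FOG genes also reached 1 TPM in both libraries, as did 44.4% of all listed genes and 63.7% of protein-coding genes. RNA of a whole dissected tissue cannot tell fewer cells of a type from less RNA per cell.

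Gata4 and Gata6 were the most abundant members. Gata4, on chromosome 14 (63198922 to 63245271 of GRCm38), is a regulator of heart, gonad and mesothelium-derived mesenchyme. It had 173 TPM in replicate 1 and 178 TPM in replicate 2, from 5740 and 5058 counts (176 ± 3.50 TPM, SD, n = 2). Both libraries placed it close to the same level, and 94.0% of the 13012 protein-coding genes expressed in both libraries had a lower mean.

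Gata6, on chromosome 18 (11052510 to 11085635), overlaps with Gata4 in heart and is also needed in endoderm. It had 121 TPM in replicate 1 and 129.8 TPM in replicate 2, from 3272 and 3014 counts (125 ± 6.42 TPM, SD, n = 2). It stood above 90.3% of expressed protein-coding genes. The TPM of Gata4 was 1.44 times that of Gata6 in replicate 1 and 1.37 times in replicate 2 (1.40 ± 0.0440, SD, n = 2). The 95% counting intervals of this ratio, 1.37 to 1.499 and 1.31 to 1.44, did not reach 1 in either library.

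Gata5, known from endocardium and gut, lies on chromosome 2 (180325133 to 180334699). It had 17.01 TPM in replicate 1 and 22.2 TPM in replicate 2, from 473 and 528 counts (19.6 ± 3.64 TPM, SD, n = 2). This was well under its closest relatives: Gata4 stood 10.2 and 8.04 times above it in replicates 1 and 2. The mean of Gata5 lay below the median of expressed protein-coding genes, which was 27.0 TPM.

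Both FOG genes were expressed, at levels between those of Gata6 and Gata5. Zfpm2 (FOG-2), the partner of Gata4 in heart, gonad and diaphragm, lies on chromosome 15 (40655042 to 41104592). It had 39.1 TPM in replicate 1 and 46.2 TPM in replicate 2, from 1650 and 1670 counts (42.6 ± 5.01 TPM, SD, n = 2). Zfpm1 (FOG-1), first known as the partner of Gata1 in red cells and megakaryocytes, lies on chromosome 8 (122282141 to 122337251). It had 26.4 TPM in replicate 1 and 31.7 TPM in replicate 2, from 785 and 807 counts (29.1 ± 3.73 TPM, SD, n = 2).

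On the deposited lengths Zfpm2 stood 1.48 and 1.46 times above Zfpm1 in replicates 1 and 2 (1.47 ± 0.0162, SD, n = 2). This order depended on the gene length used for TPM and turned to 0.766 ± 0.00845 when all GENCODE M21 exons were counted as length. With the longest coding transcript, a length chosen after the data were seen, it was 1.22 ± 0.0135. The level of Zfpm1 was 15.9 times that of Gata1, the GATA factor it is best known with, as a ratio of means over both libraries. Gata4 stood 4.43 and 3.86 times above Zfpm2 in replicates 1 and 2, and Gata6 stood 3.09 and 2.81 times above it.

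The 3 GATA genes best known from blood were low. Gata2, which acts in blood stem cells, mast cells and endothelium, lies on chromosome 6 (88193891 to 88207030). It had 7.28 TPM in replicate 1 and 5.62 TPM in replicate 2, from 207 and 137 counts (6.45 ± 1.17 TPM, SD, n = 2). Gata3, on chromosome 2 (9857078 to 9878600), had 2.49 TPM in replicate 1 and 2.42 TPM in replicate 2, from 84 and 70 counts (2.45 ± 0.0481 TPM, SD, n = 2). Gata1, the X-linked regulator of red cells, megakaryocytes and mast cells (7959260 to 7967910), had 1.45 TPM in replicate 1 and 2.20 TPM in replicate 2, from 30 and 39 counts (1.83 ± 0.531 TPM, SD, n = 2). With so few counts its 95% Poisson interval ran from 0.978 to 2.07 TPM in replicate 1 and from 1.56 to 3.01 TPM in replicate 2. All such intervals cover counting error only, and PCR copies of a molecule could not be told from separate molecules.

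**Figure D1:**
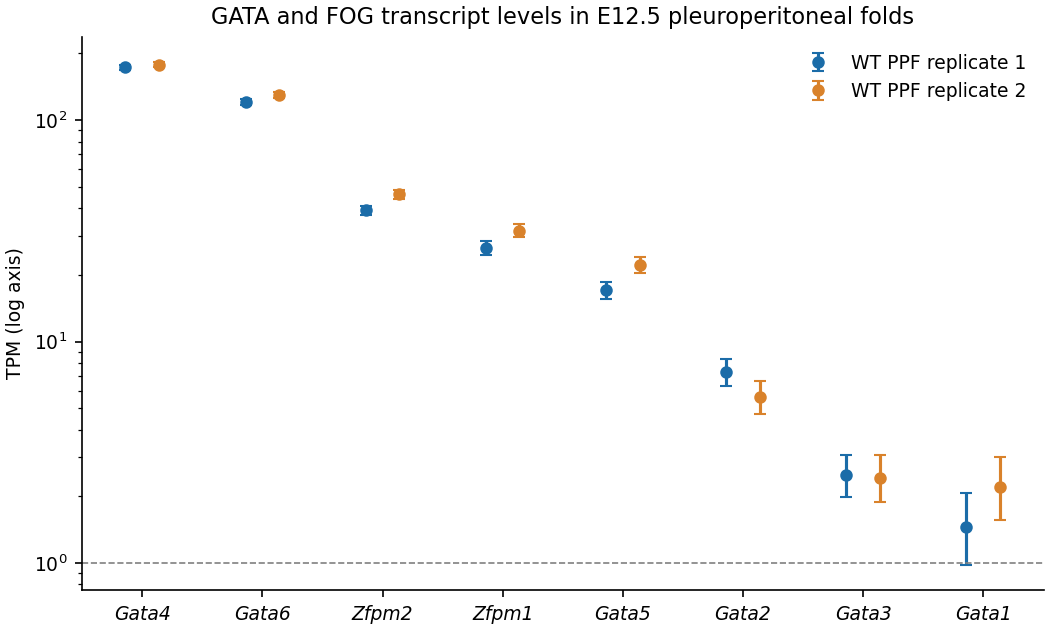
TPM on a log axis of the 8 genes in WT PPF replicate 1 (blue, left) and replicate 2 (orange, right), ordered by mean, with 95% Poisson intervals of the counts as bars and a dashed line at 1 TPM. Gata4 and Gata6 stand highest in both libraries, at means of 176 and 125 TPM, and the intervals of Gata3 and Gata1 overlap.

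The order of mean levels was Gata4, Gata6, Zfpm2, Zfpm1, Gata5, Gata2, Gata3 and Gata1, and the plot of levels by library shows it in both libraries. On the deposited lengths, for every pair of neighbours in this order, the lower library of the higher gene was above the higher library of the lower gene. With all GENCODE M21 exons as length, Zfpm1 passed Zfpm2. Zfpm2 in replicate 1 (23.1 TPM) then lay below Gata5 in replicate 2 (25.1 TPM). Gata3 stood 1.72 and 1.10 times above Gata1 in replicates 1 and 2, and their 95% counting intervals overlapped in both libraries. Such overlap does not settle their order, and no interval of this ratio was computed. All genes were measured in the same 2 libraries, too few for a permutation test to reach a p under 0.05. No test of the order was made.

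The 6 GATA genes summed to 322 TPM in replicate 1 and 340.5 TPM in replicate 2. Gata4 held 53.8% and 52.4% of this sum in replicates 1 and 2 (53.1% ± 1.01, SD, n = 2), and Gata6 held 37.5% and 38.1%. Together Gata4 and Gata6 thus made up 91.2% and 90.5% of GATA transcripts on a per-length scale. Gata5 held 5.28% and 6.51%. Gata1, Gata2 and Gata3 together held 3.48% in replicate 1 and 3.01% in replicate 2. Of the FOG sum of 65.5 and 77.9 TPM, Zfpm2 held 59.7% and 59.3%.

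Likeness of level was described by the difference in log2 mean TPM over the 2 libraries from 173 other genes of the marker and partner lists, since 2 libraries allow no correlation. Nearest to Gata4 were the NuRD genes Hdac2 (184 ± 7.46 TPM, 0.065 away) and Mta1 (184 ± 3.71 TPM, 0.066 away). Nearest to Gata6 were Osr1, a PPF connective tissue regulator (130.02 ± 8.74 TPM), and the mesothelial gene Podxl (136 ± 1.47 TPM). Zfpm2 stood next to Trps1, which encodes an atypical GATA-finger repressor (42.2 ± 2.01 TPM), and the NuRD gene Mbd2. The genes nearest to the other members were Sox9 and Pecam1 for Zfpm1, Tek and Mta3 for Gata5, Epor and Tal1 for Gata2, Lhx9 and Myh11 for Gata3, and Gp9 and Elavl4 for Gata1.

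Gene length entered each of these levels. The deposited lengths equalled the summed GENCODE M21 exons for 5 members, among them Gata4 (3904 bp) and Zfpm1 (3503 bp). They were shorter for 3: Gata6 (3194 against 6508 bp), Zfpm2 (4974 against 9536 bp) and Gata2 (3351 against 5398 bp). Using the GENCODE exon lengths for every gene gave 69.5 TPM for Gata6, 25.1 TPM for Zfpm2 and 4.53 TPM for Gata2 as means, while Gata4 had 199 TPM. The annotation that the reads were counted on is not given. Bases that it left out would add length without reads, which was not tested. Gata4 stood above Gata6 under each length tried, but its lead became 2.86 ± 0.0897 times with the GENCODE exons.

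**Figure D2:**
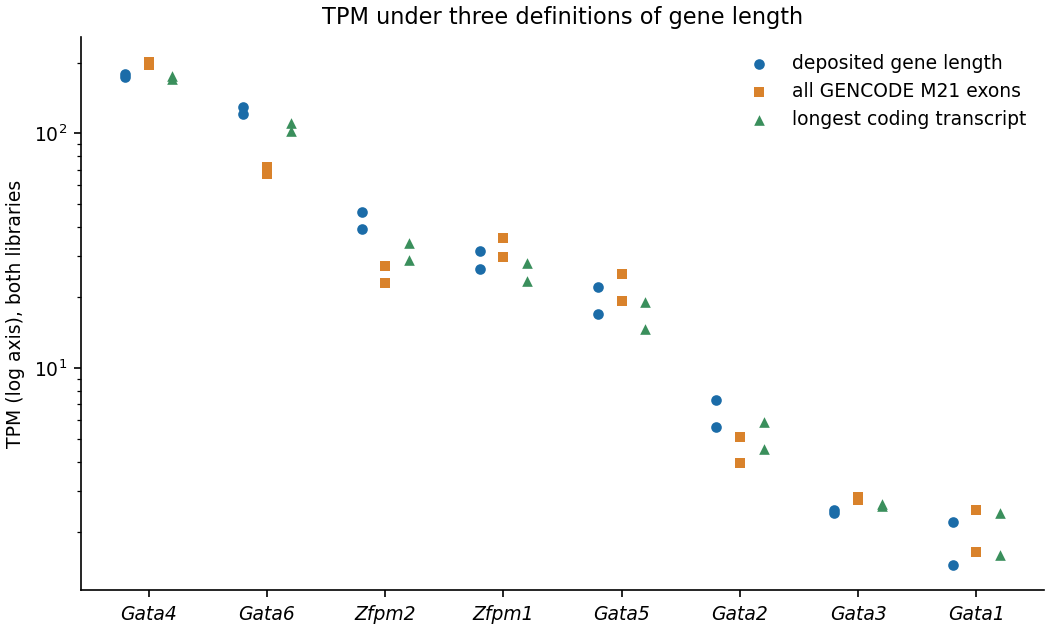
TPM on a log axis of the 8 genes in both libraries (2 symbols of each kind) with the deposited length (circles), all GENCODE M21 exons (squares) and the longest coding transcript (triangles). Zfpm2 and Zfpm1 change order with all GENCODE exons, at means of 25.1 and 32.8 TPM, while Gata4 and Gata6 do not.

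Neighbouring genes shared few exon bases with the members. No source used here gives the strand setting of the counting, so reads of overlapping genes cannot be told apart by strand. Gata3 shared 155 exon bases with the antisense gene Gm13256, which had 3 counts in each library, and 77 with 9230102O04Rik on its own strand, which had 3 counts in replicate 1 and 7 in replicate 2. Gata5 shared 258 exon bases (7.87% of its own) with the antisense gene Gata5os. The files list a gene named Gm14318 at the same coordinates as Gata5os, with 43 counts in replicate 1 and 36 in replicate 2. Gata6 shared 93 exon bases with 1010001N08Rik, a noncoding gene that starts beside it on the opposite strand, at 9.67 TPM in replicate 1 and 13.5 TPM in replicate 2. Each of these neighbours had a lower TPM than the member it touches in both libraries. Zfpm1 lies inside the span of Gm20388, a long gene model on the same strand, but shares no exon base with it. Gm20388 had 4505 counts in replicate 1 and 3677 in replicate 2. Its TPM of 134 and 128 in replicates 1 and 2 was above that of Zfpm1 in both libraries. No annotated gene of GENCODE M21 shared exon bases with Gata1, Gata2, Gata4, Zfpm1 or Zfpm2.

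The libraries were compared with each other gene by gene, with a two-sided exact binomial test on counts scaled by edgeR's TMM factors and adjusted by Benjamini-Hochberg over 19433 genes. It compares these 2 libraries and not conditions or animals, and counting error is the only noise it allows for. Of all genes tested, 17.5% had an adjusted p under 0.05, and of those with at least 1000 counts 30.0% did. Among the 8 members 3 passed (37.5%): Gata5, Zfpm1 and Zfpm2, each lower in replicate 1, a direction in which 8.85% of all genes passed, while 8.65% passed as higher in replicate 1. These 3 each had at least 1000 counts over both libraries, where 14.7% of genes passed in that direction. Gata4 and Gata6 also had at least 1000 counts and did not pass. Gata1, Gata2 and Gata3 had fewer, so the 37.5% is not a share of members in that count class.

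Gata5 had a log2 ratio of replicate 1 to replicate 2 of -0.34 (95% interval -0.53 to -0.16, exact binomial adjusted p = 0.0021). For Zfpm1 the log2 ratio was -0.22 (-0.37 to -0.081, exact binomial adjusted p = 0.0156) and for Zfpm2 it was -0.20 (-0.30 to -0.10, exact binomial adjusted p = 0.000779). The FOG genes thus differed by close to the same ratio, and their ratio to each other hardly moved between the libraries. None of the 3 reached 1.5-fold, as 2.35% of all genes did with an adjusted p under 0.05. When the spread between the libraries was added as noise, by an edgeR exact test with a dispersion estimated over both, none of the 8 members passed. That dispersion takes differences between these same 2 libraries as noise, so the result does not show that the members were equal in them. Each then had an adjusted p of 1, none had an unadjusted p under 0.05, and 0.751% of all genes passed.

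Gata4 had a log2 ratio of -0.0019 (-0.057 to 0.053, exact binomial adjusted p = 1), which turned to 0.0012 when total counts were used for scaling. Among genes with at least 1000 counts, 98.7% had a ratio at least as far from 0 as that of Gata4, and 13.0% as that of Zfpm2. Gata6 had a log2 ratio of -0.066 (-0.14 to 0.0060, exact binomial adjusted p = 0.229). The intervals of Gata4 and Gata6 kept any difference between these libraries within a log2 ratio of 0.14 in size, as far as counting error goes.

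Gata2 was the member with the highest ratio, a log2 value of 0.41 (0.093 to 0.73, exact binomial adjusted p = 0.0531), and had an adjusted p of 0.0409 when genes under 100 counts were left out of the exact binomial test. Gata3 had a log2 ratio of 0.077 (-0.40 to 0.56, exact binomial adjusted p = 0.913) and Gata1 of -0.56 (-1.30 to 0.16, exact binomial adjusted p = 0.319). The intervals of Gata1 and Gata3 include 0 and are the widest of the 8 members. The median log2 ratio over the 8 members was -0.13, against 0.014 over all genes tested.

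**Figure D3:**
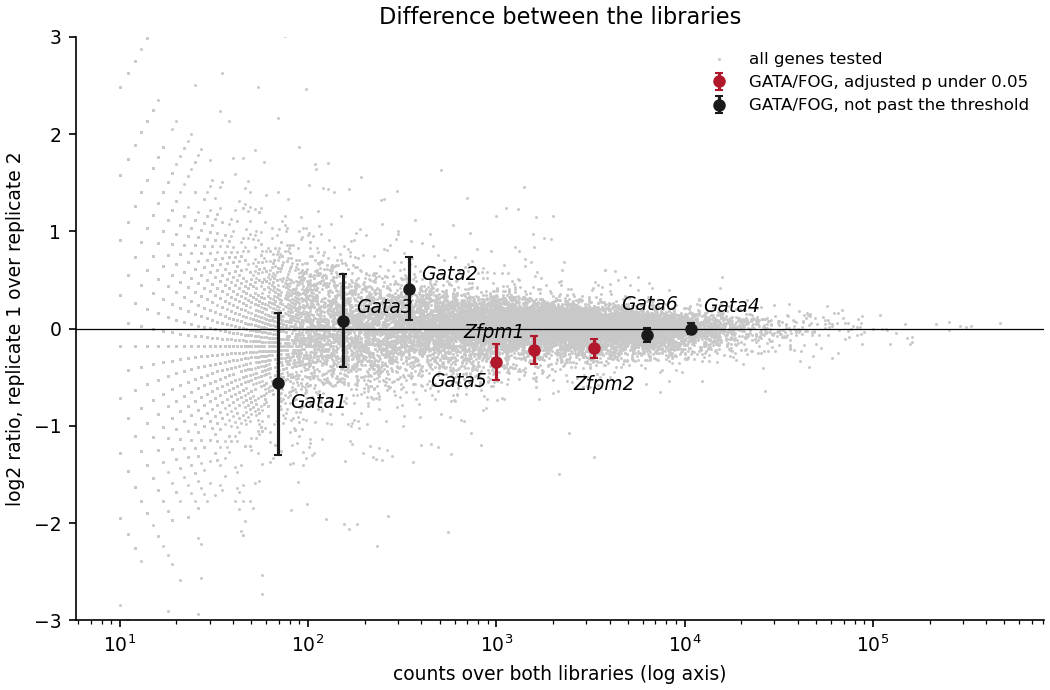
Log2 ratio of replicate 1 over replicate 2 against the counts over both libraries (log axis) for all 19433 genes tested (grey) and the 8 members, with 95% binomial intervals. Gata5, Zfpm1 and Zfpm2 (red) had an adjusted p under 0.05 and lie below 0 within the grey cloud, and 27 genes lie beyond the axis limits of -3 and 3.

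Markers of blood and vessel cells, in which Gata1, Gata2 and Zfpm1 are known to act, were found at levels from high to 0. Of the 15 erythroid genes listed, 14 were found and 13 had at least 1 TPM in both libraries, led by the globins Hbb-y (4462 TPM in replicate 1, 4104 TPM in replicate 2), Hba-a1 (585 and 523 TPM) and Hbb-bs (444 and 508 TPM). The red cell regulator Klf1, a partner and target of Gata1, had 3.53 TPM in replicate 1 and 6.55 TPM in replicate 2. Of the 9 megakaryocyte genes 7 were expressed, led by Pf4 at 34.2 and 36.2 TPM in replicates 1 and 2 and Gp1bb at 18.8 and 18.5 TPM. All 11 endothelial genes were expressed, led by Cdh5 at 64.9 and 82.1 TPM and Kdr at 51.4 and 48.1 TPM.

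Mast and lymphoid markers were sparse. Of 8 mast cell genes 3 were expressed: Kit (11.0 and 12.5 TPM in replicates 1 and 2), which other cells use as well, the protease gene Cpa3 (7.39 and 2.75 TPM) and the histamine enzyme gene Hdc (1.38 and 1.16 TPM). The protease genes Tpsb2 and Mcpt4 had 0 counts in both libraries, which for Mcpt4 allows up to 0.357 and 0.417 TPM at a floor of 3 counts. Of 6 lymphoid genes Cd247 alone was expressed (9.67 and 10.3 TPM), while Cd3e, which defines T cells, had 0 counts in replicate 1 and 2 in replicate 2. No lymphoid gene of 4 tested passed in either direction.

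Counts of passing genes, for these and later lists, stand beside 17.5% of all genes and 30.0% of those with at least 1000 counts. Between the libraries, 7 of 14 erythroid genes were lower in replicate 1 and 2 were higher, with a median log2 ratio of -0.48. The globin Hbb-y was among the higher at 0.16. The summed TPM of the erythroid list was 6057 in replicate 1 and 5726 in replicate 2. Gata1 and Zfpm1 had lower values in replicate 1 than in replicate 2, like most of these genes, and their part in the result was not tested. No megakaryocyte gene of 8 tested passed in either direction (median -0.053), and in the endothelial list 3 were lower in replicate 1 and 1 higher (median -0.099).

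Of 3 mast cell genes tested 1 passed, Cpa3, which was higher in replicate 1 with a log2 ratio of 1.45 (exact binomial adjusted p = 1.11e-05). The log2 ratio of Kit was -0.14 (exact binomial adjusted p = 0.296) and that of Hdc was 0.29 (exact binomial adjusted p = 0.547). The nephric duct list, in which Gata2 and Gata3 also act, had 5 of 9 genes higher in replicate 1 and 1 lower, with a median log2 ratio of 1.78. Its leading gene Emx2 had 20.3 TPM in replicate 1 and 8.20 TPM in replicate 2, and Pax8 had 1.34 and 0.0680 TPM. The summed level of that list was 25.4 TPM in replicate 1 and 11.3 TPM in replicate 2. Sympathetic neurons also express Gata2 and Gata3, and 7 of 12 of their genes were lower in replicate 1 and none higher, at a median of -1.01. Dbh, which encodes the enzyme that makes noradrenaline, had 1.75 TPM in replicate 1 and 7.31 TPM in replicate 2. The part of these cells in the levels of Gata2 and Gata3 was not tested.

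**Figure D4:**
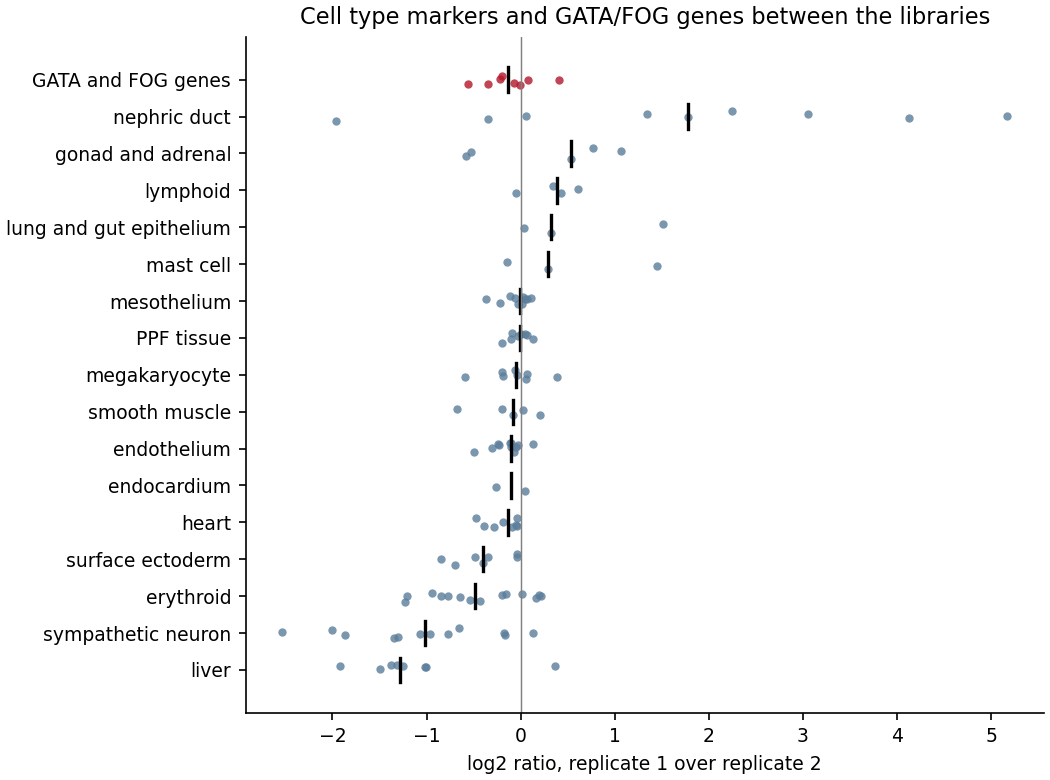
Log2 ratio of replicate 1 over replicate 2 for the GATA and FOG genes (red) and for the genes of 16 cell type lists with at least 10 counts (blue), 1 point a gene and a black bar at each median. The 8 members lie between -0.56 and 0.41, while the medians of the lists run from -1.28 for liver to 1.78 for nephric duct, where the gene farthest right has 0 counts in replicate 2 and is placed with 0.5 counts added.

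Tissues in which Gata4, Gata5 and Gata6 are also known to act were checked in the same way. Of 12 heart genes 8 were expressed, led by Myl4 (89.8 TPM in replicate 1, 98.1 TPM in replicate 2), Myl7 (69.9 and 94.2 TPM) and Myh7 (37.2 and 39.2 TPM), of which embryonic skeletal muscle also expresses Myl4 and Myh7. The heart-defining regulator Nkx2-5 had 1 count in replicate 1 and 3 in replicate 2, and Nppb had 0 counts in both. Heart genes were lower in replicate 1 in 3 of 8 cases tested (median -0.14), Myl7 among them at -0.39 (exact binomial adjusted p = 0.0025). Both endocardial genes were expressed, Nfatc1 at 9.32 and 9.25 TPM and Npr3 at 8.32 and 10.2 TPM in replicates 1 and 2. Npr3 was lower in replicate 1 with a log2 ratio of -0.26 (exact binomial adjusted p = 0.0316), and the log2 ratio of Nfatc1 was 0.049 (exact binomial adjusted p = 0.808). The part of endocardial cells in the ratio of Gata5 was not tested.

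Among 8 genes of gonad and adrenal, 4 were expressed, led by Sox9 (25.1 TPM in replicate 1, 37.2 TPM in replicate 2) and the gonadal receptor gene Amhr2 (10.3 and 5.02 TPM). Of 5 tested, Amhr2 and Lhx9 were higher in replicate 1, and Sox9 and Star lower. Nr5a1, which defines the steroid-making cells in which Gata4 acts, had 0 counts in replicate 1 and 1 in replicate 2. Of 9 lung and gut epithelial genes 2 were expressed, and Nkx2-1, Cdx2 and Shh had 0 counts in both libraries. Of 3 tested, Cldn6 was higher in replicate 1. Of 8 liver genes tested 7 were lower in replicate 1 and none higher, and their median log2 ratio was -1.28. Afp had 58.5 TPM in replicate 1 and 149.8 TPM in replicate 2. The log2 ratio of Gata4 was -0.0019 and that of Gata6 was -0.066. The part of cells of these tissues in the levels of Gata4 and Gata6 was not tested.

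The PPF and mesothelial lists share Wt1 and Aldh1a2. Their passing genes stand beside 17.5% of all genes tested and 30.0% of those with at least 1000 counts. All PPF genes except Tcf21 had at least 1000 counts. All 10 mesothelial genes were expressed, led by Aldh1a2 (269 TPM in each library), Upk3b (219 TPM in replicate 1, 243 TPM in replicate 2) and Podxl (135 and 137 TPM), and 2 were lower in replicate 1 and none higher. In the PPF list 1 of 8 was lower in replicate 1, Tbx5, and the median log2 ratio was -0.012. Of 5 smooth muscle genes 4 were expressed, led by Acta2 at 880 TPM in replicate 1 and 889 TPM in replicate 2, and Tagln was higher in replicate 1 at a log2 ratio of 0.21. Of 8 surface ectoderm genes 3 were expressed, led by Krt14 at 8.45 and 8.92 TPM, and none of 7 tested passed in either direction.

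The corepressor genes were all detected. All 15 genes listed for NuRD and CtBP, which FOG proteins recruit, were expressed, with medians of 181 TPM in replicate 1 and 179 TPM in replicate 2. Highest were the corepressor gene Ctbp1 (317 and 311 TPM in replicates 1 and 2), the histone-binding subunit gene Rbbp7 (316 and 311 TPM) and the remodeller gene Chd4 (282 and 299 TPM). The lowest was Mta3, at 21.2 TPM in replicate 1 and 19.5 TPM in replicate 2. Between the libraries 3 were higher in replicate 1 and 2 lower, and the median log2 ratio was 0.040. Of all genes tested 17.5% passed in either direction, as did 30.0% of those with at least 1000 counts.

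Other genes that encode GATA-type fingers were all expressed, 9 of 9, led by Mta2 (186 TPM in replicate 1, 187 TPM in replicate 2), Mta1 (181 and 187 TPM) and Gatad2a (78.3 and 85.2 TPM). Zglp1, known from germ cells, was lowest at 4.08 and 2.59 TPM in replicates 1 and 2. In this list 2 genes were lower in replicate 1 and none higher: Gatad2b, at a log2 ratio of -0.41, and Rere, which has been linked to diaphragmatic hernia in humans and mice, at -0.13.

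Of 11 cardiac and mesodermal partners of Gata4, Gata5 and Gata6, 9 were expressed. The calcineurin target Nfatc4 (137 TPM in replicate 1, 136 TPM in replicate 2), Mef2c (95.7 and 115.9 TPM) and Srf (72.8 and 71.1 TPM) were highest. Tbx5, mutated in a human heart and limb syndrome, had 42.9 and 50.7 TPM, and Nr2f2, which binds Zfpm2, had 54.4 and 59.3 TPM in replicates 1 and 2. The 2 not expressed were Nkx2-5 and Nr5a1, known from heart muscle and steroid-making cells, and both were near 0. Other cardiac and mesodermal partners were expressed, among them Mef2c, Tbx5 and Hand2 (21.8 TPM in replicate 1, 25.4 TPM in replicate 2). Between the libraries 3 of 9 tested were lower in replicate 1, Mef2c, Ep300 and Tbx5, and Klf13 was higher. Among all genes tested 17.5% passed, and 30.0% did among those with at least 1000 counts.

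Of 12 blood partners of Gata1 and Gata2, 11 were expressed, but the highest were genes that many cell types use. The E-protein gene Tcf3 had 242 TPM in replicate 1 and 249 TPM in replicate 2, the adaptor gene Ldb1 had 225 and 231 TPM, and Runx1 had 31.8 and 35.6 TPM. Tal1, which joins Gata1 in a blood complex, stood at 6.54 and 7.85 TPM, near the level of Gata2. Gfi1b, a blood repressor, was lowest at 0.966 and 0.977 TPM in replicates 1 and 2. In this list 4 of 12 genes were lower in replicate 1 and none higher: Runx1, Lmo2, Klf1 and Nfe2. The median log2 ratio over the 12 genes was -0.019. Lower in replicate 1 were 8.85% of all genes tested, and 14.7% of those with at least 1000 counts.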

How the data were processed

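RNA of 2 PPF libraries was sequenced after polyA selection with a stranded kit, per the labels. The tools named in the submitters' processing notes are featureCounts, SAMtools 1.3 and STAR 2.4.0a, and the build named there is mm9. The deposited coordinates shared at least 1 end with GENCODE M21 (GRCm38) for 82.2% of matching symbols and for all 8 members, so positions are given as GRCm38. The deposited raw counts were not normalised by the authors. The deposited TPM, computed by the authors, was recomputed from count and listed length to within 5.1e-11. Protein-coding symbols (20411) came from GENCODE and RefSeq.

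Ratios between the libraries used counts plus 0.5 and TMM factors of 1.0011 and 0.9989 (edgeR 4.0.16) over genes with at least 10 counts in all; an exact binomial test was adjusted by Benjamini-Hochberg. The test compares 2 libraries, so its p-values hold for these samples alone. Intervals are 95% Poisson or exact binomial (scipy 1.17.1). An exon-length TPM kept the deposited length for symbols not in GENCODE. The common dispersion was 0.00639. The binomial test was tested on counts simulated with counting noise alone, so its behaviour under spread between libraries was not simulated. DESeq2 1.42.0 size factors, other filters, thresholds and lengths, and leaving out a library were tried.

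The members and the 20 gene lists were chosen with earlier results of these data known. Names came from all members, the 3 highest and the lowest gene of each list, the genes nearest in level and genes sharing exon bases with members. Outside that rule, Gm14318 and Gm20388 were named because they overlap the span of a member. Chosen by name after seeing values, and not by that rule, were Wt1, Tbx5, Nr2f2, Klf1, Klf13, Nkx2-5, Tpsb2, Nkx2-1, Cdx2, Gatad2b, Rere, Ep300, Lmo2 and Nfe2.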

Additional observations from a re-analysis of the deposited data

How the results depend on the processing

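All 8 members reached the expression threshold under each length, CPM, a threshold of 0.5 TPM, without short features and in each library alone, and 6 did at 5 TPM. With all GENCODE exons as length, Gata4 over Gata6 was 2.86, the Gata4 share of GATA TPM 66.3% and Zfpm2 over Zfpm1 0.766. With CPM and no length scaling they were 1.72, 57.9% and 2.09. With the longest coding transcript, added after the data were seen, they were 1.63, 56.6% and 1.22. With either library left out they ran from 1.37 to 1.44, from 52.4% to 53.8% and from 1.46 to 1.48. Beyond the change of length that each setting makes, the cause was not tested. Members differing between the libraries numbered 3 with TMM, total counts, DESeq2 size factors and no filter, 4 with at least 100 counts (Gata1 not tested), 0 with the edgeR exact test and 0 at 1.5-fold. All genes called numbered 3399 with TMM, 3440 with at least 100 counts (24.4% of those tested), 3146 with no filter (12.2%), 146 with the edgeR exact test and 456 at 1.5-fold. The log2 ratio of Gata4 became 0.0012 with total counts. Leaving out a library gives no comparison of libraries. No paired analysis was possible because the series has 1 group. Depth limits Gata1 and Gata3, with 69 and 154 counts over both libraries.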
